A study of Mus musculus with 8 samples.

Results

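The transforming growth factor beta (TGF-beta) ligand genes Tgfb1, Tgfb2 and Tgfb3, the receptor genes Tgfbr1, Tgfbr2 and Tgfbr3, and the latency protein genes Ltbp1, Ltbp2, Ltbp3 and Ltbp4 were followed by RNA-seq in immortalized mouse pancreatic stellate cells (PSCs), the fibroblast-like cells of the pancreas. The 10 genes were chosen by name as members of these families, and all 10 are among the 12160 genes counted. PSCs grew in Matrigel domes for 4 days in DMEM with serum and then for 4 days in a test medium. The test media were medium conditioned by KPC organoids carrying an shRNA against Brca2 (shBrca2-CM, 3 domes), medium conditioned by KPC organoids with a non-targeting shRNA (shControl-CM, 3 domes) and a control medium (2 domes). KPC organoids are cultures of mouse pancreatic cancer cells. The control libraries are titled DMEM, and the study's Results name growth medium, whereas the treatment recorded for them is the PSCs' own conditioned medium. Control medium is used for it here. The shRNA acted in the organoids and not in the PSCs, so that no gene of these libraries checks the silencing. All libraries came from 1 immortalized line, and the domes are replicate cultures rather than animals.

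TGF-beta ligands are made as precursors that stay bound to their own propeptide. The latent complex is linked by a latent TGF-beta binding protein (Ltbp) to the extracellular matrix, and integrins or proteases release the ligand from it. The free ligand binds the type II receptor, which recruits and phosphorylates the type I receptor, and the type I receptor phosphorylates Smad2 and Smad3 that enter the nucleus with Smad4. In stellate cells and fibroblasts TGF-beta is best known for inducing the contractile, matrix-producing myofibroblast state.

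Promoter sequence is shown for Tgfb1 and Ltbp1, the genes that were called between the conditioned media, and for Tgfb2, which fell to the counting limit. The windows are the 250 bases before an annotated RefSeq start (build GRCm38.p6, the assembly also named mm10), 5′ to 3′ on the gene's strand, with motif matches in capitals. Motifs were searched on both strands as the SMAD box CAGAC, the AP-1 site TGANTCA, the GC box GGGCGG, the GAS site TTCNNNGAA, the CRE TGACGTCA and the TATA box TATAAA. Windows were found for 8 of the 10 genes, 12 windows in all, and Tgfb3 and Tgfbr3 had none.
Tgfb1, chr7:25686752-25687001, plus strand: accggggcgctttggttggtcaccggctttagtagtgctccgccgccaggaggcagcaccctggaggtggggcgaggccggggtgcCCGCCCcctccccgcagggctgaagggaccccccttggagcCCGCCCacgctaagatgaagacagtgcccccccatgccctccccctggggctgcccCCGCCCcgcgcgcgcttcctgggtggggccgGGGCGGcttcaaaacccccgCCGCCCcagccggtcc
Tgfb2, chr1:186705990-186706239, minus strand: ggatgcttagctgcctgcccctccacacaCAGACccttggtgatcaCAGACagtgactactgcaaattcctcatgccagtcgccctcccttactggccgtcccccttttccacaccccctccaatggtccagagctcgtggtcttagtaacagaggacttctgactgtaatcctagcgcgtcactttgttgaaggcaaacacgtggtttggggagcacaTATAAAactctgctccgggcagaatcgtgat
Ltbp1 first start, chr17:75005279-75005528, plus strand: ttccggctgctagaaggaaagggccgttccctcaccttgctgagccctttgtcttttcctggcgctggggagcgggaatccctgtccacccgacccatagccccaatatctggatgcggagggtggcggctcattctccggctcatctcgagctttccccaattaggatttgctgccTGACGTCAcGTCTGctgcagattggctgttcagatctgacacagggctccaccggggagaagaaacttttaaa
Ltbp1 second start, chr17:75178531-75178780, plus strand: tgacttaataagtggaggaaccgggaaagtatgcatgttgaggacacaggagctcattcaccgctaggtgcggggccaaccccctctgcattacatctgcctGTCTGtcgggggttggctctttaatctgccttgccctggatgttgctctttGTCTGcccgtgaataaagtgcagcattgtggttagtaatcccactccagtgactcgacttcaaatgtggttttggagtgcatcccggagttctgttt

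The Tgfb1 window was 75.2% G or C and held 5 GC boxes and no other motif searched. The Tgfb2 window was 53.6% G or C, with 2 SMAD boxes and a TATA box 31 bases before the start. The first Ltbp1 window held a CRE 73 bases and a SMAD box 64 bases before the start, and the second held 2 SMAD boxes. These letters are common to very different degrees. Of 32851 windows of all genes in the RefSeq table, 42.2% held a SMAD box, 32.7% a GC box, 12.4% a TATA box, 7.02% a GAS site, 6.75% an AP-1 site and 1.55% a CRE. Because the libraries hold the 3′ ends of transcripts, the data do not tell which Ltbp1 start was used, and a match is a string of letters and not a bound site.

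Libraries were made by the MARS-seq protocol, which counts the 3′ ends of mRNAs. Counts on genes totalled 655996 to 1095534 in shBrca2-CM libraries, 1093609 to 1624392 in shControl-CM libraries and 4623846 to 5476988 in control libraries, so that low genes were seen least well with shBrca2-CM. Levels are given as counts and as CPM (counts scaled to a common library size with TMM factors), and the limit of 3 counts used below for a gene near zero covers counting error only. All 10 mesenchymal markers were counted, with a sum of 3964 to 4523 CPM with shBrca2-CM, 4673 to 5663 CPM with shControl-CM and 7181 to 8769 CPM in control medium. Much of the difference in this sum is Vim, the vimentin gene, at 436 to 749, 243 to 463 and 3396 to 4115 CPM in that order. Without Vim, left out after its values were seen, the other 9 summed to 3389 to 3774, 4430 to 5286 and 3785 to 4654 CPM, so that shControl-CM overlapped control medium with the higher range. The stellate marker Des stood at 7.10 to 12.4, 3.84 to 9.66 and 3.13 to 4.94 CPM in that order, and the stellate markers Gfap and Lrat were not analysed here. Of 10 epithelial markers, Krt18, Krt19 and Muc1 were counted (59.3 to 94.1, 57.7 to 70.6 and 37.0 to 41.7 CPM in sum), and Krt19 alone stood the other way, at 5.79 to 16.2, 2.04 to 3.86 and 24.3 to 25.4 CPM. Of 7 immune markers, Cd68, Lyz2 and Csf1r were counted (13.0 to 26.6, 23.7 to 36.0 and 9.46 to 11.5 CPM in sum). Of 5 endothelial markers, Kdr and Tek were counted, and both stayed at or under 3 counts in every conditioned medium library. The part of these markers in the results below was not tested. In a dome, fewer cells of a kind and less RNA per cell cannot be told apart.

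Groups were compared in pairs, with the quasi-likelihood test of edgeR fitted to all genes. To be called, a gene needed a Benjamini-Hochberg adjusted p under 0.1, a log2 fold change beyond 0.5 in either direction and more than 5 normalized counts on average. Both comparisons with control medium use the same 2 control libraries. With shControl-CM, 8 of the 10 genes were called against control medium, 5 higher and 3 lower, where 37.1% of 12086 genes tested were called (18.2% higher and 18.9% lower). With shBrca2-CM, 9 of the 10 were called, 6 higher and 3 lower, against 37.8% of 12049 genes (18.6% higher and 19.2% lower). Between the conditioned media 2 of the 10 were called, Ltbp1 higher and Tgfb1 lower with shBrca2-CM, against 3.13% of 11035 genes (1.58% higher and 1.55% lower). The median log2 fold change of the 10 genes was 0.49, 0.57 and -0.11 in these comparisons, and that of all genes tested was -0.10, -0.05 and 0.03. Scaled by total counts instead, all calls split into 1798 higher and 2671 lower with shControl-CM against control medium (2200 and 2288 with TMM), and into 250 higher and 120 lower with shBrca2-CM against shControl-CM (174 and 171 with TMM). Of the 10 mesenchymal markers, Col1a1, Col1a2, Col3a1, Vim and Sparc were called lower and Dcn and Thy1 higher with both conditioned media against control medium, with Lum also higher with shControl-CM and Pdgfra with shBrca2-CM. Of the epithelial markers Krt18 and Muc1 were called higher and Krt19 lower with both, and of the immune markers Cd68 was higher with both and Csf1r with shControl-CM.

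**Figure D1:**
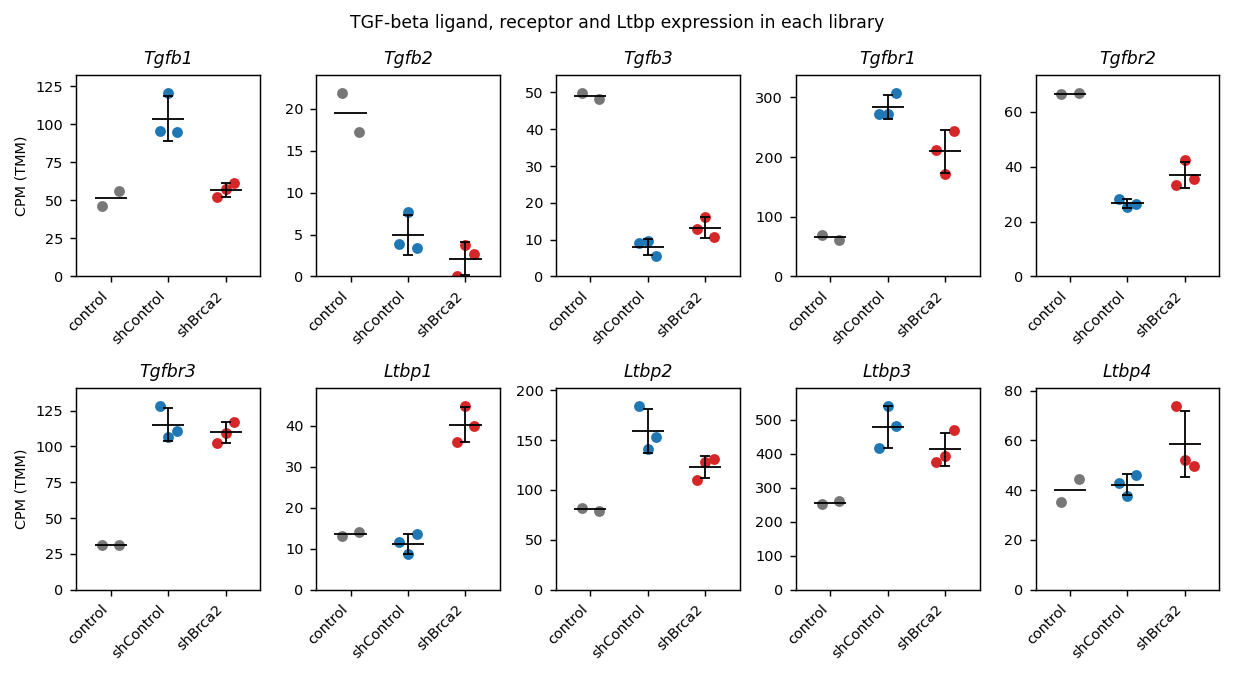
Level of each of the 10 genes in each library, in CPM on a linear axis that starts at 0 (points: domes; horizontal line: group mean; bar: SD, drawn for the groups of 3). Tgfb1 stood apart with shControl-CM, Ltbp1 with shBrca2-CM, and Tgfb2, Tgfb3 and Tgfbr2 were lower with both conditioned media than in control medium.

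Of the ligand genes, Tgfb2 and Tgfb3 fell with both conditioned media, while Tgfb1 rose with shControl-CM and was not called with shBrca2-CM. Tgfb1 (chromosome 7, 25687002 to 25705077, mm10) encodes the ligand best studied in fibrosis. Its counts were 268 and 263 in control medium, 149, 125 and 140 with shControl-CM and 36, 46 and 69 with shBrca2-CM, or 46.6 and 56.5 CPM, 95.5, 121 and 95.1 CPM, and 52.1, 57.2 and 61.2 CPM. Every shControl-CM dome lay above all others, and the shBrca2-CM range overlapped that of control medium. The log2 fold change was 0.997 (SE 0.19; edgeR, adjusted p = 0.00387) for shControl-CM against control medium and 0.16 for shBrca2-CM against control medium (95% interval -0.21 to 0.53, adjusted p = 0.531). Set directly against each other, Tgfb1 was 1.77-fold lower with shBrca2-CM than with shControl-CM (log2 fold change -0.83, SE 0.17, 95% interval -1.20 to -0.45, adjusted p = 0.0273). This last call was lost without shBrca2-CM replicate 1 (adjusted p = 0.142), 2 (0.160) or 3 (0.114) or without shControl-CM replicate 2 (0.141), at log2 fold changes of -0.88 to -0.73. The adjusted p ranged from 0.00720 to 0.160 over 15 alternative analyses.

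Tgfb2 (chromosome 1, 186622787 to 186709697) is the ligand that needs the co-receptor Tgfbr3 most for binding to the type II receptor. It was counted 126 and 80 times in control medium, 6, 8 and 5 times with shControl-CM and 0, 3 and 3 times with shBrca2-CM. These are 21.9 and 17.2 CPM, 3.84, 7.73 and 3.40 CPM, and 0, 3.73 and 2.66 CPM. No dome in conditioned medium reached the control range. Against control medium the log2 fold change was -2.05 with shControl-CM (SE 0.38, adjusted p = 0.00312). With shBrca2-CM all libraries were at or under 3 counts, so that Tgfb2 was at least 4.50-fold lower than in control medium (adjusted p = 1.85e-07). A difference between the conditioned media was not detectable at this depth (mean normalized count 3.79, adjusted p = 0.617).

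Tgfb3 (chromosome 12, 86056743 to 86079041) encodes the third ligand, best known from palate and lung development. It was counted 287 and 224 times in control medium (49.9 and 48.2 CPM), 14, 10 and 8 times with shControl-CM (8.97, 9.66 and 5.43 CPM) and 9, 13 and 12 times with shBrca2-CM (13.0, 16.2 and 10.7 CPM). Both conditioned media lay far under the control range, and the shControl-CM range lay below that of shBrca2-CM. Against control medium Tgfb3 was 6.20-fold lower with shControl-CM (log2 fold change -2.63, SE 0.29, adjusted p = 1.62e-04) and 3.75-fold lower with shBrca2-CM (log2 fold change -1.91, SE 0.25, adjusted p = 8.47e-09). With shBrca2-CM against shControl-CM Tgfb3 had a log2 fold change of 0.74, with a 95% interval of -0.10 to 1.59 (adjusted p = 0.451). An exon of Tgfb3 overlaps Ttll5 on the opposite strand by 179 bases, 532 bases from the 3′ end of Tgfb3 (GENCODE M39, GRCm39), and whether strand was used in counting is not given in the sources used here. Reads of both cannot be told apart in that stretch, and Ttll5 itself was called lower with shControl-CM (log2 fold change -1.21, adjusted p = 0.00669) and with shBrca2-CM (-0.84, adjusted p = 0.00302).

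Of the receptor genes, those of the type I receptor and of the co-receptor rose and that of the type II receptor fell with both conditioned media. Tgfbr1 (chromosome 4, 47353222 to 47414926) encodes the type I receptor kinase that phosphorylates Smad2 and Smad3. Its level was 69.3 and 61.5 CPM in control medium (399 and 286 counts), 273, 272 and 308 CPM with shControl-CM (426, 282 and 453 counts) and 213, 172 and 244 CPM with shBrca2-CM (147, 138 and 275 counts). All 6 conditioned medium domes lay above the control domes, and the shBrca2-CM domes lay between the other groups. Tgfbr1 was 4.32-fold higher with shControl-CM (log2 fold change 2.11, SE 0.17, adjusted p = 2.19e-05) and 3.22-fold higher with shBrca2-CM (log2 fold change 1.69, SE 0.16, adjusted p = 2.73e-13) than in control medium. The difference from shControl-CM to shBrca2-CM was -0.41 (log2 fold change, 95% interval -0.73 to -0.09) and was not called (adjusted p = 0.223).

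Tgfbr2 (chromosome 9, 116087695 to 116175363) encodes the type II receptor, which binds the ligand first. Its level was 66.4 and 66.9 CPM in control medium (382 and 311 counts), 28.2, 25.1 and 26.5 CPM with shControl-CM (44, 26 and 39 counts) and 33.3, 42.3 and 35.5 CPM with shBrca2-CM (23, 34 and 40 counts). The groups were apart, with shControl-CM lowest. Tgfbr2 was 2.51-fold lower with shControl-CM (log2 fold change -1.33, SE 0.20, adjusted p = 9.13e-04) and 1.80-fold lower with shBrca2-CM (log2 fold change -0.84, SE 0.19, adjusted p = 3.31e-04). For shBrca2-CM against shControl-CM the log2 fold change was 0.50 (95% interval 0.01 to 0.99) and was not called (adjusted p = 0.367).

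Tgfbr3 (chromosome 5, 107106567 to 107289629) encodes betaglycan, a co-receptor without kinase activity that presents ligand to the type II receptor. It stood at 31.1 and 31.4 CPM in control medium (179 and 146 counts), at 128, 106 and 111 CPM with shControl-CM (200, 110 and 163 counts) and at 103, 110 and 117 CPM with shBrca2-CM (71, 88 and 132 counts). The conditioned media overlapped each other and lay well above control medium. The rise was 3.67-fold with shControl-CM (log2 fold change 1.88, SE 0.18, adjusted p = 8.59e-05) and 3.53-fold with shBrca2-CM (log2 fold change 1.82, SE 0.18, adjusted p = 3.86e-13). For shBrca2-CM against shControl-CM its log2 fold change was -0.04 with a 95% interval of -0.37 to 0.28 (adjusted p = 0.941), and its sign turned with total counts (0.07), in thinned libraries (0.02) and without shControl-CM replicate 1 (0.02).

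The 4 Ltbp genes, whose products hold latent TGF-beta or, for Ltbp2, mainly organise elastic fibres, did not move as one. Ltbp1 (chromosome 17, 75005480 to 75392512) encodes a binding protein that anchors the latent complex to fibronectin and fibrillin matrix. It was counted 75 and 66 times in control medium (13.0 and 14.2 CPM), 18, 9 and 20 times with shControl-CM (11.5, 8.70 and 13.6 CPM) and 25, 36 and 45 times with shBrca2-CM (36.2, 44.8 and 39.9 CPM). Every shBrca2-CM dome lay above all others, while the shControl-CM range overlapped that of control medium. Ltbp1 was 3.57-fold higher with shBrca2-CM than with shControl-CM (log2 fold change 1.83, SE 0.27, 95% interval 1.24 to 2.43, adjusted p = 0.00314) and 2.97-fold higher than in control medium (log2 fold change 1.57, SE 0.24, adjusted p = 1.87e-07). For shControl-CM against control medium the log2 fold change was -0.25 (95% interval -0.93 to 0.42, adjusted p = 0.543). The call between the conditioned media was kept in 15 of 15 alternative analyses, at log2 fold changes of 1.69 to 2.16 and adjusted p of 3.10e-04 to 0.0389. One shControl-CM library held only 9 counts of Ltbp1.

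Ltbp2 (chromosome 12, 84783212 to 84876558) encodes the member of this protein family that does not bind latent TGF-beta. It stood at 82.4 and 79.1 CPM in control medium (474 and 368 counts), 184, 141 and 153 CPM with shControl-CM (287, 146 and 226 counts) and 110, 128 and 130 CPM with shBrca2-CM (76, 103 and 147 counts), with no overlap between groups. The rise was 1.97-fold with shControl-CM (log2 fold change 0.98, SE 0.18, adjusted p = 0.00266) and 1.53-fold with shBrca2-CM (log2 fold change 0.61, SE 0.16, adjusted p = 0.00129). Against shControl-CM, Ltbp2 had a log2 fold change of -0.35 with shBrca2-CM (95% interval -0.68 to -0.02) and was not called (adjusted p = 0.346).

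Ltbp3 (chromosome 19, 5740900 to 5758536) encodes a binding protein of latent TGF-beta with roles in bone and teeth. Its counts were 1444 and 1212 in control medium, 651, 559 and 708 with shControl-CM and 260, 317 and 528 with shBrca2-CM, or 251 and 261 CPM, 417, 540 and 481 CPM, and 376, 394 and 469 CPM. The conditioned media overlapped and lay above control medium, by 1.86-fold with shControl-CM (log2 fold change 0.90, SE 0.16, adjusted p = 0.00279) and 1.62-fold with shBrca2-CM (log2 fold change 0.70, SE 0.14, adjusted p = 5.90e-05). The log2 fold change between them was -0.18 (95% interval -0.49 to 0.12, adjusted p = 0.634). The Ltbp3 counts are uncertain, because whether counting used strand is not given in the sources used here.

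Ltbp4 (chromosome 7, 27305140 to 27339720) encodes a binding protein of latent TGF-beta that also takes part in elastic fibre assembly. It stood at 35.3 and 44.5 CPM in control medium (203 and 207 counts), 42.9, 37.7 and 46.2 CPM with shControl-CM (67, 39 and 68 counts) and 73.8, 52.3 and 49.7 CPM with shBrca2-CM (51, 42 and 56 counts). The shControl-CM domes overlapped the control domes (log2 fold change 0.08, 95% interval -0.39 to 0.56, adjusted p = 0.784) and the shBrca2-CM domes lay above both. The rise with shBrca2-CM was 1.45-fold over control medium (log2 fold change 0.53, SE 0.20, adjusted p = 0.0257), and the log2 fold change against shControl-CM was 0.47 (95% interval 0.01 to 0.93, adjusted p = 0.356). The call against control medium rested on single libraries, since it was lost without shBrca2-CM replicate 1 (log2 fold change 0.35, adjusted p = 0.230) and without control medium replicate 1 (0.37, 0.175). It was also lost with DESeq2 (adjusted p = 0.1001) and in thinned libraries (0.180).

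**Figure D2:**
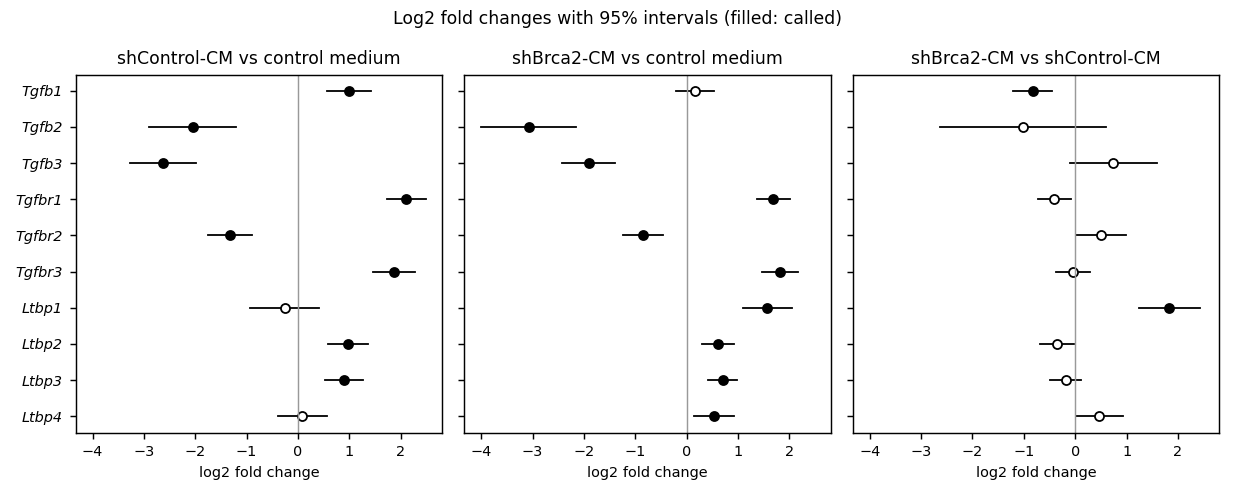
Log2 fold changes of the 10 genes in the 3 comparisons (point: edgeR estimate; line: 95% interval; filled: called). Tgfbr1 and Tgfbr3 stood right of 0 and Tgfb2, Tgfb3 and Tgfbr2 left of 0 in both comparisons with control medium, and between the conditioned media only Ltbp1 and Tgfb1 are filled.

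In all, 6 of the 10 genes had unadjusted p-values under 0.05 between the conditioned media, as did 13.4% of all genes tested, and 7 had groups that did not overlap, which held for 19.8% of all genes. Against control medium the groups did not overlap for 8 genes with shControl-CM and for 9 with shBrca2-CM, which held for 59.9% and 57.4% of all genes tested. The same numbers of the 10 genes, 8 and 9, had unadjusted p-values under 0.05 there, as did 44.0% and 46.9% of all genes tested.

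The mix of counts within each family was also compared. The values are shares of 3′ counts, unscaled by length, and follow how the mix moved between media rather than which transcript was more abundant. Of the counts on the 3 ligand genes, Tgfb1 took 39.4% (95% Wilson interval 35.8 to 43.1) and 46.4% (42.3 to 50.5) in the control libraries. It took 89.0% ± 2.18 (SD, n = 3) with shControl-CM and 78.8% ± 4.11 (SD, n = 3) with shBrca2-CM. Tgfb3 took 42.1% and 39.5% in the control libraries, with Wilson intervals of 38.5 to 45.9 and 35.6 to 43.6. Its share was 6.84% ± 1.53 with shControl-CM and 18.4% ± 3.61 with shBrca2-CM (SD, n = 3 each). The ligand counts were thus drawn mostly from Tgfb1 with either conditioned medium, and the share of Tgfb3 was larger with shBrca2-CM than with shControl-CM in every dome. Tgfb2 took 16.3% of ligand counts in control medium (mean of 2 libraries), 4.14% ± 1.27 with shControl-CM and 2.80% ± 2.51 with shBrca2-CM (SD, n = 3 each).

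Of the counts on both kinase receptor genes, Tgfbr2 took 48.9% (95% Wilson interval 45.4 to 52.4) and 52.1% (48.1 to 56.1) in the control libraries. It took 8.58% ± 0.727 with shControl-CM and 15.3% ± 3.86 with shBrca2-CM (SD, n = 3 each). Of the counts on the 4 Ltbp genes, Ltbp1 took 3.42% (2.73 to 4.26) and 3.56% (2.81 to 4.51) in the control libraries, 1.64% ± 0.395 with shControl-CM and 6.37% ± 0.760 with shBrca2-CM. The groups did not overlap in any of these shares except that of Tgfb2 between the conditioned media. An exact permutation test over domes (two-sided) gave p = 0.1 for each of these differences, 0.107 after adjustment over 15 tests, and p = 0.6 for the Tgfb2 share between the conditioned media. With 3 against 2 or 3 against 3 domes, 0.1 is the smallest two-sided p that this test can reach.

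**Figure D3:**
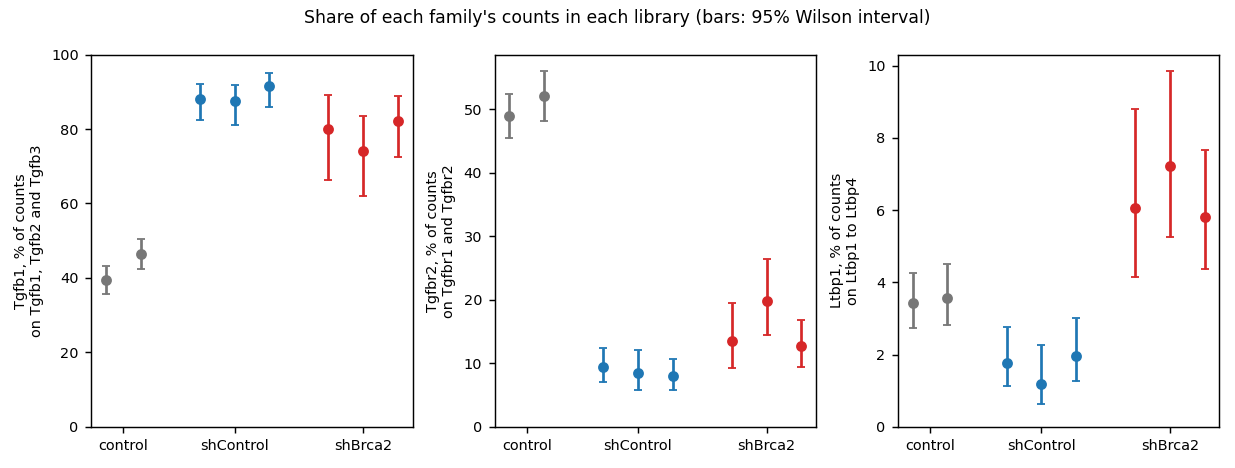
Share of Tgfb1 in the counts on the 3 ligand genes, of Tgfbr2 in the counts on Tgfbr1 and Tgfbr2, and of Ltbp1 in the counts on the 4 Ltbp genes, in percent for each library (point: share; bar: 95% Wilson interval, counting error only). Tgfb1 is at 39.4% and 46.4% in control medium and above 74% in every conditioned medium library, and Tgfbr2 is near 50% in control medium and below 20% in the others.

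The other genes of the pathway were taken from 5 lists by role, 80 genes of which 72 were counted and the others (Fbn2, Aspn, Itgb6, Itgb8, Nrros, Usp15, Bambi and Tgfb1i1) were not analysed here. Against control medium 17 of 72 were called higher and 31 lower with shControl-CM (66.7% called, beside 37.1% of all genes tested, median log2 fold change -0.51), and 15 and 31 with shBrca2-CM (63.9%, beside 37.8%, median -0.43). Between the conditioned media 6 of 70 tested were called higher with shBrca2-CM and 4 lower (14.3%, beside 3.13%, median -0.01).

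**Figure D4:**
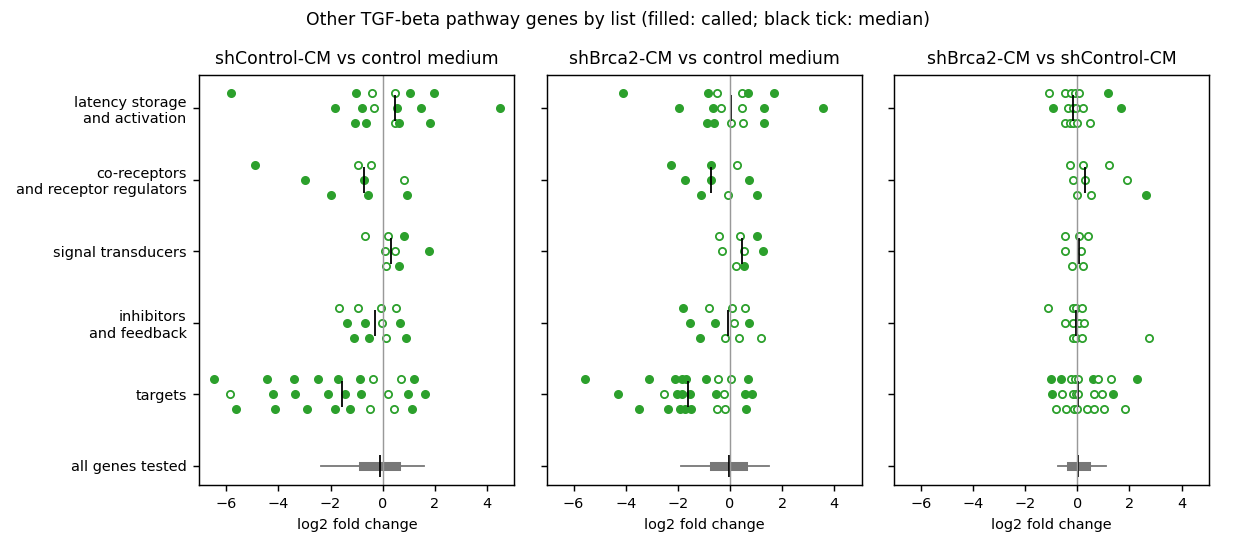
Log2 fold changes of the other pathway genes by list in the 3 comparisons (circles: genes, filled where called; black tick: median; bottom row: all genes tested, thick bar the interquartile range and thin line the 5th to 95th percentile). The target genes spread furthest to the left against control medium, with 16 called lower and 4 higher in each comparison.

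Of 17 genes for the storage and activation of latent TGF-beta, 7 rose and 6 fell with shControl-CM (76.5% called, beside 37.1%, median log2 fold change 0.47), and 5 rose and 6 fell with shBrca2-CM (64.7%, beside 37.8%, median 0.02). Those that rose most were Dcn, whose product decorin binds TGF-beta in the matrix, the gelatinase gene Mmp2, the integrin gene Itgb3 and the procollagen proteinase gene Bmp1. Dcn went from a mean of 92.4 CPM in control medium to 2107 ± 170 CPM with shControl-CM and 1086 ± 160 CPM with shBrca2-CM (SD, n = 3 each), at log2 fold changes of 4.50 and 3.56. The log2 fold changes of Mmp2, Itgb3 and Bmp1 were 1.97, 1.80 and 1.46 with shControl-CM and 1.69, 1.31 and 1.30 with shBrca2-CM. Furin, the protease that cuts the ligand precursors, was called with shControl-CM (0.53, edgeR adjusted p = 0.0325) and stood at 0.46 with shBrca2-CM, under the fold threshold. Fmod, whose product fibromodulin also binds TGF-beta, fell most, from 347 CPM to 6.23 ± 0.954 CPM with shControl-CM and 19.5 ± 8.34 CPM with shBrca2-CM (log2 fold changes -5.81 and -4.10). Thbs1, the activator thrombospondin 1, Fbn1, the fibrillin to which Ltbp proteins bind, and Fn1, fibronectin, fell as well. Their log2 fold changes were -1.82, -1.07 and -1.04 with shControl-CM and -0.65, -0.61 and -0.83 with shBrca2-CM. The protease genes Mmp9 (-0.79 and -1.97) and Mmp14 (-0.64 and -0.90) were called lower with both, at edgeR adjusted p of 0.0778 and 0.0588 with shControl-CM, calls that were kept there in 7 and 9 of 14 alternative analyses and were lost when either control library was left out.

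Of 9 co-receptors and receptor regulators, 1 rose and 5 fell with shControl-CM (66.7% called, beside 37.1%), and 2 rose and 5 fell with shBrca2-CM (77.8%, beside 37.8%), at a median of -0.73 in both. Cav1, the caveolae protein through which receptors are taken up, fell from 96.2 CPM to 3.10 ± 3.21 CPM with shControl-CM and to 19.98 ± 7.19 CPM with shBrca2-CM (log2 fold changes -4.90 and -2.25). Nrp1 (-2.98 and -1.10), the co-receptor Cd109 that inhibits signalling (-1.96 and -1.73) and the receptor-binding inhibitor Strap (-0.73 and -0.74) fell with both. Tgfbrap1, which binds the receptors, rose with both (0.92 and 0.74). Acvrl1, another type I receptor gene, was called higher with shBrca2-CM at 1.02, from means of 3.31 to 6.67 CPM, and kept that call in 4 of 14 alternative analyses.

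Among 8 signal transducers 3 rose and none fell with each conditioned medium (37.5%, beside 37.1% and 37.8% called among all genes). Smad4, the common partner of the receptor Smads, rose from 6.05 CPM to 21.3 ± 5.05 CPM with shControl-CM (log2 fold change 1.78, edgeR adjusted p = 0.00269) and 14.5 ± 2.68 CPM with shBrca2-CM (1.28, 0.00218). Tab1 rose with both (0.80 and 1.02), and Map3k7, the kinase gene whose product Tab1 activates, with shBrca2-CM (0.52). The endosomal adaptor gene Hgs rose with shControl-CM (0.61). Smad2 (log2 fold changes 0.09 and -0.41) and Smad3 (0.11 and 0.23) were not called.

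Of 12 inhibitors and feedback genes, 2 rose and 4 fell with shControl-CM (50% called, beside 37.1%, median -0.31), and 1 rose and 4 fell with shBrca2-CM (41.7%, beside 37.8%, median -0.06), shares near those of all genes. Smad7, the inhibitory Smad that TGF-beta itself induces, fell from 30.3 CPM to 19.0 ± 3.84 CPM with shControl-CM (log2 fold change -0.66, edgeR adjusted p = 0.0738) and 8.20 ± 3.63 CPM with shBrca2-CM (-1.79, 2.33e-06). Smad6 (-1.36 and -1.55), Tgif2 (-1.08 and -1.15) and the ubiquitin ligase Smurf2 (-0.53 and -0.58) fell with both. Pmepa1, a feedback inhibitor that binds receptor Smads, rose with both (0.90 and 0.71), and Smurf1 rose with shControl-CM (0.66). Skil, another inhibitor induced by the pathway, was counted at most 18 times in a library and was not called.

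Of 26 target genes, 16 fell and 4 rose with each conditioned medium (76.9% called, beside 37.1% and 37.8%, where 18.9% and 19.2% of all genes tested were called lower). Their median log2 fold changes were -1.58 and -1.62 (-1.34 and -1.53 with genes near zero set at their bounds). Tagln, a smooth muscle cytoskeletal gene, fell furthest (log2 fold changes -6.48 and -5.55). Acta2, the smooth muscle actin gene, had no more than 3 counts in any of the 6 libraries from conditioned medium, against 26.3 CPM in control medium. It was lower by at least 9.06-fold with shControl-CM and 6.05-fold with shBrca2-CM. Eln, the elastin gene, had a log2 fold change of -4.29 with shBrca2-CM and, with at most 3 counts in every shControl-CM library, was lower there by at least 26.0-fold. Postn (-4.45 and -3.11), Ccn2 (-4.20 and -1.92) and Col1a1 (-1.45 and -2.04) fell with both. The 4 targets that rose with both were Timp1 (1.62 and 0.60), Junb (1.21 and 0.56), Tnc (1.12 and 0.68) and Vegfa (0.97 and 0.83). Among the pathway genes named above, the calls of Furin, Mmp9, Mmp14, Tgfbrap1, Strap, Hgs, Tab1, Smad7, Smurf1, Smurf2, Tgif2, Pmepa1, Col1a1 and Vegfa with shControl-CM were each lost without one or the other control library. Those of Furin, Mmp9, Mmp14, Strap, Smad7, Smurf1 and Smurf2 were also lost without shControl-CM replicate 2, that of Mmp14 without replicate 1 and that of Smurf1 without replicate 3. With shBrca2-CM, calls were lost without shBrca2-CM replicate 1 (Thbs1, Acvrl1, Smurf2 and Timp1), 2 (Acvrl1) or 3 (Acvrl1 and Map3k7), and without control medium replicate 1 (Map3k7 and Pmepa1) or 2 (Fbn1, Acvrl1, Smurf2 and Junb). With DESeq2 the calls of Nrp1 (adjusted p = 0.155, with 1 shControl-CM library at 0 counts), Mmp9, Smad7, Smurf1 and Smurf2 with shControl-CM and those of Thbs1 and Acvrl1 with shBrca2-CM were lost. In thinned libraries those of Mmp9, Tgfbrap1, Hgs, Smad7, Smurf2 and Pmepa1 with shControl-CM and of Acvrl1, Smurf2 and Pmepa1 with shBrca2-CM were lost. With total counts those of Furin and Hgs with shControl-CM were lost, and with the replicate block those of Smurf1 with shControl-CM and of Map3k7 and Acvrl1 with shBrca2-CM. The mesenchymal markers share Dcn and 3 collagen genes with these lists.

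Between the conditioned media, the 10 pathway genes called were 6 matrix, receptor or target genes higher with shBrca2-CM and 4 lower. Ccn2, a matricellular target of TGF-beta, stood at 114 CPM in control medium, 6.35 ± 2.17 CPM with shControl-CM and 30.2 ± 6.25 CPM with shBrca2-CM (log2 fold change 2.28, SE 0.36, edgeR adjusted p = 0.00470). Also higher were Cav1 (2.65, adjusted p = 0.0611), Fmod (1.69, 0.0563), Postn (1.37, 0.0951), Thbs1 (1.18, 0.0874) and Tgfbi (0.61, 0.0794). Tgfbi, a secreted matrix protein named for its induction by TGF-beta, stood at 247, 141 ± 24.7 and 211 ± 18.2 CPM in control medium, shControl-CM and shBrca2-CM. Each of these 6 genes was lower with shControl-CM than in control medium. Lower with shBrca2-CM were Timp1 (-1.005, edgeR adjusted p = 0.00230), Snai1, a repressor of epithelial genes (-0.97, 0.00908), Dcn (-0.93, 0.00314) and Junb (-0.63, 0.0197). Timp1, an inhibitor of matrix proteases, stood at 674, 2086 ± 307 and 1021 ± 126 CPM in control medium, shControl-CM and shBrca2-CM. Ccn2, Timp1, Snai1 and Dcn kept their calls in 15 of 15 alternative analyses. The other 6 calls were lost when single libraries were left out, all but that of Tgfbi without shControl-CM replicate 2, and all of them without shBrca2-CM replicate 2 or 3. Those of Cav1, Tgfbi and Postn were also lost without shBrca2-CM replicate 1, those of Fmod and Postn with DESeq2, those of Postn and Thbs1 in thinned libraries and that of Postn with the replicate block. At adjusted p under 0.05 the calls of Cav1, Fmod, Postn, Thbs1 and Tgfbi were not kept.

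By list, these calls between the conditioned media were 17.6% of the storage and activation genes, 11.1% of the co-receptors and receptor regulators and 24% of the targets tested, beside 3.13% of all genes. None of 7 signal transducers tested was called by edgeR, with 0 at an unadjusted p under 0.05 and 0 called by DESeq2. Of the 12 inhibitors and feedback genes 0 were called by edgeR, with 2 at an unadjusted p under 0.05 and 0 called by DESeq2. With 3.13% of all genes called and 13.4% at an unadjusted p under 0.05, the counts of these 2 short lists are near those of all genes.

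For the 7 genes with at least 10 counts in every library (all but Tgfb2, Tgfb3 and Ltbp1), the most similar of 6453 genes were found by the root mean square difference of log2 CPM over the 8 libraries, each profile centred on its own mean. Libraries of a group share their medium and lie near each other in depth, which both enter this measure. Ltbp3 was closest to Jun (0.0699), Igsf8 (0.0799) and Got2 (0.0845). Ltbp2 was closest to Adarb1 (0.0868), Kat14 (0.0989) and Nfkbia (0.102), and Ltbp4 to Gtf2ird2 (0.121), Ly6e (0.123) and Wdr3 (0.131). Of the receptor genes, Tgfbr2 was closest to Cmtm3 (0.0942), Jpt2 (0.0966) and Zcchc14 (0.109). Tgfbr1 was closest to Adipor1 (0.128), Map4k4 (0.150) and Sphk1 (0.150), and Tgfbr3 to Gys1 (0.146), Ubash3b (0.149) and Mcph1 (0.150). Tgfb1 was closest to Tubb6 (0.127), a tubulin gene, Hmox1 (0.144), the heme oxygenase gene, and Ccne1 (0.148), the cyclin E gene.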

How the data were processed

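RNA of 8 cultures of immortalized mouse PSCs was sequenced from 3′ end (MARS-seq) libraries on a NextSeq instrument. The authors deposited unnormalized read counts for 12160 genes, 1 column per dome, without pooling. The submitters' processing notes name bcl2fastq, cutadapt, STAR 2.4.2a, HTSeq, DESeq2 and the mm10 build. The annotation, the strand setting, the use of molecular identifiers and the rule by which genes were listed are not given in the sources used here. In the table, 1 further column matched no sample and was not used.

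Groups came from the sample titles. The quasi-likelihood test of edgeR 4.0.16 (R 4.3.3, TMM factors) was run on 2 groups at a time, for genes with a summed count of 10 or more in their libraries, and p-values were adjusted over all genes tested (Benjamini-Hochberg). CPM used TMM factors over all 8 libraries. The p-values measure the spread between domes. The scripts were tested on simulated data. A group whose libraries all held at most 3 counts was compared as a bound, from the other group's mean CPM and the highest floor of that group.

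The 10 genes, the pathway lists and the marker lists were chosen with earlier results of these data known. From each list, up to 4 called genes per direction and comparison with the largest change and no overlap between groups were named, plus a fixed set that includes Smad2, Smad3, Smad4, Smad7, Skil, Ccn2, Tgfbi, Acta2, Tagln, Col1a1, Thbs1, Fbn1 and Furin. Some genes of these lists are not reported here. Alternatives were DESeq2 1.42.0 (likelihood ratio test), its size factors or total counts in edgeR, other filters, a stricter threshold, 1 fit of all groups, a replicate block, thinning of libraries to the smallest total in 1 random draw, and each library left out in turn. The family shares, their tests and their alternatives were chosen after seeing the data. Sequences are RefSeq's (GRCm38.p6), and gene overlaps come from GENCODE M39.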

Additional observations from a re-analysis of the deposited data

How the results depend on the processing

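Of the 10 genes, those called against control medium numbered 8 and 9 and those called between the conditioned media 2, and with each library left out in turn these counts ranged over 8 to 8, 8 to 9 and 1 to 2. Pathway genes called ranged over 33 to 51 (shControl-CM against control medium), 44 to 46 (shBrca2-CM against control medium) and 4 to 19 (between the conditioned media), and all genes over 1901 to 5157, 3903 to 4510 and 128 to 976. For shControl-CM against control medium, 1901 genes were called without control medium replicate 1 and 2269 without replicate 2, fits in which the lone control library was assumed to vary like the others. Between the conditioned media, all genes and pathway genes called were 976 and 19 without shControl-CM replicate 1, 128 and 4 without shBrca2-CM replicate 2, and 160 and 4 without replicate 3. Without shBrca2-CM replicate 1 and without shControl-CM replicate 2, 175 and 169 genes were called. Libraries thinned to the smallest total gave 2864 calls for shControl-CM against control medium. At adjusted p under 0.05, 206 genes and 5 pathway genes were called between the conditioned media. The direction of Ltbp4 with shControl-CM turned with total counts (log2 fold change -0.030) and without control medium replicate 1 (-0.059, range with libraries left out -0.059 to 0.25), and that of Tgfbr3 between the conditioned media with total counts (0.070), in thinned libraries (0.016) and without shControl-CM replicate 1 (0.024, range -0.11 to 0.024). The cause was not tested. Thinning moved the share of Tgfb3 in control medium to 43.2%, that of Tgfbr2 to 62.4% in control medium and 9.55% with shControl-CM, and that of Ltbp1 in control medium to 4.50%. Of the pathway genes called, 28 of 48, 36 of 46 and 4 of 10 kept their call in each of 14, 14 and 15 alternatives. Whether same-numbered domes pair was not settled. Correlations of their deviations from the group mean, over 6224 genes, were -0.07, 0.03 and 0.16 between the conditioned media. Not every dome correlated best with its own number. The values were 0.15 and 0.01 for shControl-CM with control medium, and 0.04 and -0.01 for shBrca2-CM with control medium. With 2 control libraries the deviations are equal and opposite, so that the values with control medium cannot show pairing or its absence. A replicate block left the counts of the 10 genes at 8, 9 and 2 and gave 4512, 3850 and 311 calls over all genes and 50, 46 and 10 pathway genes. Depth limits Tgfb2, Tgfb3 and Ltbp1 most.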
